A study of Homo sapiens with 40 samples.

Results

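The genes described here encode 10 G protein-coupled receptors that tune hormone release from pancreatic islets, namely GLP1R, GIPR, GCGR, FFAR1, FFAR4, ADRA2A, SSTR1, SSTR2, SSTR5 and MTNR1B, out of 20020 protein-coding genes in GENCODE 44. Every peak in the deposited H3K27ac and CTCF tables was taken as theirs when it lay within 2 kb of any of their start sites, in the gene body, or nearest to their start site among protein-coding genes at up to 100 kb. This gave 29 of 51489 H3K27ac peaks and 22 of 51457 CTCF peaks. Of the regions listed as enhancers by H3K27ac and H3K4me1, 10 of 14886 in non-senescent cells and 9 of 13076 in senescent cells belonged to these genes, and of 2435 senescence-specific Rb regions 0 did. The study placed enhancers outside promoters by definition, which largely keeps start-site stretches off the 2 enhancer lists. All positions are on hg38 and count from 1.

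All 40 libraries came from EndoC-βH3, a human beta-like cell line derived from fetal pancreas and immortalized with SV40 large T antigen and hTERT, which a tamoxifen-activated Cre recombinase (CreER) can excise. Senescent cells had received 4-hydroxytamoxifen (4-OHT) for 3 weeks, and non-senescent cells carried the same transgenes and had not been treated. There were 3 libraries per state for H3K27ac, an acetylation found on nucleosomes at active start sites and enhancers, and 3 per state for CTCF, which binds DNA and anchors loops of chromatin. H3K4me1, an enhancer mark, and Rb, the retinoblastoma tumour suppressor, had 2 per state, all with input libraries. The study asked how chromatin differs between the states. This is 1 cell line, treatment and state cannot be told apart, and nothing in the labels says that replicate libraries came from separate cultures, so p-values measure the spread between libraries, which may be technical. In bulk chromatin, fewer cells carrying a mark and less mark per cell cannot be told apart. The tables give a mean and a fold change per peak and no value per library, so the level in each state is the one implied by these numbers.

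The labelled cell type was checked by H3K27ac at the start sites of marker genes, where 13525 of 20020 protein-coding genes had a peak, 3.34% of them gained and 9.12% lost. All 10 of the beta cell markers examined, INS and PDX1 among them, had a peak there, although that of MAFA was weak (a mean of 43.6 counts). By a limit of a fold above 1.5, 1 of them, IAPP, was higher in senescent cells (log2 fold change 0.93, standard error (SE) 0.15, adjusted p = 4.33e-09). At smaller folds with an adjusted p below 0.05, SLC30A8 (0.47), INS (0.34) and PDX1 (0.29) were higher, and G6PC2 (-0.48) and NEUROD1 (-0.13) lower. Of 4 alpha cell markers 3 had a peak and GCG, the defining one, had none. Both delta cell markers had one, and both were lower in senescent cells, at -0.86 (SE 0.29, adjusted p = 0.00889) for SST and -0.76 (SE 0.12, adjusted p = 2.03e-09) for HHEX. A peak was present at 2 of 3 exocrine and 1 of 3 mesenchymal markers. KRT19 (-0.74) and COL3A1 (-0.75) among these were lower, and CPA1 (0.19) was higher at a fold under the limit. The part of these markers in the receptor results was not tested.

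Receptors of this family pass the signal of a hormone, transmitter or metabolite outside the cell to G proteins inside it. In beta cells, the incretin receptors GLP1R and GIPR and the glucagon receptor GCGR couple to Gs, which raises cyclic AMP and amplifies glucose-stimulated insulin secretion. Fatty acid receptors act largely through Gq and phospholipase C, whereas the adrenergic, somatostatin and melatonin receptors in this set couple to Gi, which lowers cyclic AMP and restrains secretion.

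Start-site sequence is shown first, because the receptors divided there into those with and without H3K27ac. RefSeq gives a start-site window of 300 bases for all 10 genes (250 before the start and 50 after it, GRCh38.p14). The windows of FFAR1, SSTR1, SSTR2 and GIPR are the 4 with the highest H3K27ac over them. Those of ADRA2A and SSTR5 were added after the values had been seen, because their peaks changed. All are on the plus strand, at chr19:35347652-35347951 (FFAR1), chr14:38207654-38207953 (SSTR1), chr17:73164760-73165059 (SSTR2), chr19:45667971-45668270 (GIPR), chr10:111076779-111077078 (ADRA2A) and chr16:1078576-1078875 (SSTR5). Capitals mark matches, on either strand, to 7 short motifs whose letters are given after the sequences.
FFAR1: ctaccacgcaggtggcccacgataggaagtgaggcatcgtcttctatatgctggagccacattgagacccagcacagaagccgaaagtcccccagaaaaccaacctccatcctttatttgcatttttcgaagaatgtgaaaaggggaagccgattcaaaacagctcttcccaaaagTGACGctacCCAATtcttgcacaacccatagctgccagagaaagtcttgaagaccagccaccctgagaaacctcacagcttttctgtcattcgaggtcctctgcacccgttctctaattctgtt
SSTR1: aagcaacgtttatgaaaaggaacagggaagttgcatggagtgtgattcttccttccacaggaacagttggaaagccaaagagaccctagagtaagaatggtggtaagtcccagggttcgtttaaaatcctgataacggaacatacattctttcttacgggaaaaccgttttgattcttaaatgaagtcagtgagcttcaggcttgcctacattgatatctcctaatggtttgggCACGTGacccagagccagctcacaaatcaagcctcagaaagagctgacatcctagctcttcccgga
SSTR2: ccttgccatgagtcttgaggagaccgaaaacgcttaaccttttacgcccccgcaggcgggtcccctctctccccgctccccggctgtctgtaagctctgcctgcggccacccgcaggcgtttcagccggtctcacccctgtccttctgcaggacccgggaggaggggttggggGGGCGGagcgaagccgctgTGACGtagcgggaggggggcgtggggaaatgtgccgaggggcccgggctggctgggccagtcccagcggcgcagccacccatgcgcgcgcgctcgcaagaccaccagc
GIPR: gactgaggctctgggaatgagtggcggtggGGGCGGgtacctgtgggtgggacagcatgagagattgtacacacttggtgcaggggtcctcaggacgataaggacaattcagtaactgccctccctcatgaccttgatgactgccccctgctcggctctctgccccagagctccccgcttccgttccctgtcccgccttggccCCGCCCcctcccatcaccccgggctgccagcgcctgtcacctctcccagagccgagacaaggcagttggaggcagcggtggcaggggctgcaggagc
ADRA2A: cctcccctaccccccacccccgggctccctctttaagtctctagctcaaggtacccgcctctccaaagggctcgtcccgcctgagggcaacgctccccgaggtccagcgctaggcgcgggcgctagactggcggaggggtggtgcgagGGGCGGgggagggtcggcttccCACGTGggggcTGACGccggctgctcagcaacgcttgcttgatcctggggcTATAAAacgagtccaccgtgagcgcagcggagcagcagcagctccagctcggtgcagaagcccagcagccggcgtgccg
SSTR5: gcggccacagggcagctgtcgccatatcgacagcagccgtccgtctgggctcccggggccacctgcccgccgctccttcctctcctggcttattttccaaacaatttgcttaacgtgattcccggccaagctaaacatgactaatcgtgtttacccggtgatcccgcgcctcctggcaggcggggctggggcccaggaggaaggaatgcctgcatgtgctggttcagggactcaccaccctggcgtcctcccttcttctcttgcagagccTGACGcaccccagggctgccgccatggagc

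These windows were unlike each other in base composition. GC content was 44.7% in SSTR1 and 49% in FFAR1, both below the median of 58.3% over 27305 windows, and 70% in SSTR2, 69.3% in ADRA2A, 65% in GIPR and 63% in SSTR5. The highest values in the set, 77.3% in GCGR and 75.3% in GLP1R, belonged to windows with no H3K27ac peak over them. The short form of the cyclic AMP response element, TGACG, was present in 4 of the 10 windows (FFAR1, ADRA2A, SSTR2 and SSTR5), against 25% of all windows. Its full form, TGACGTCA, which contains the short one, was present in 0 of the 10, against 1.98%. The GC box, spelled GGGCGG, was present in 5 windows (GLP1R, GIPR, GCGR, ADRA2A and SSTR2), against 44.6%. ADRA2A and SSTR1 held the E-box, spelled CACGTG and found in 7.43% of windows. ADRA2A alone of the 10 held the sequence TATAAA, the box of that name, found in 12%. FFAR1 held the motif CCAAT, found in 35.7% of windows. MTNR1B held the homeodomain core, spelled TAATTA and found in 4.98%. A match is a description of the letters and not a bound site.

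The receptors fell into those with H3K27ac across their canonical start site, at levels from near to far above the start-site median, and those without any there. A peak covered this site in 5 genes (GIPR, FFAR1, ADRA2A, SSTR1 and SSTR2), and in GLP1R, GCGR, FFAR4, SSTR5 and MTNR1B none lay within 2 kb of it. GCGR and SSTR5 had a peak within 2 kb of the start of a shorter transcript instead. This left 3 genes (GLP1R, FFAR4 and MTNR1B) with none within 2 kb of any start site. Per kb of peak, the mean over both states was 420 counts at SSTR1, 404 at FFAR1, 255 at SSTR2, 174 at GIPR and 139 at ADRA2A. The median was 131.5 for start-site peaks of all protein-coding genes and 66.6 for all peaks, so SSTR1 and FFAR1 stood at percentiles 98.5 and 98.2 of the table. Differences between neighbours in this order carry no test, since no per-library values are given. Of the genes without a marked canonical start site, MTNR1B reached 309 counts per kb in a peak 19.7 kb upstream and GCGR 249.5 in a peak at its 3′ end, whereas the highest values were 88.7 for FFAR4, 78.7 for GLP1R and 71.7 for SSTR5.

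**Figure D1:**
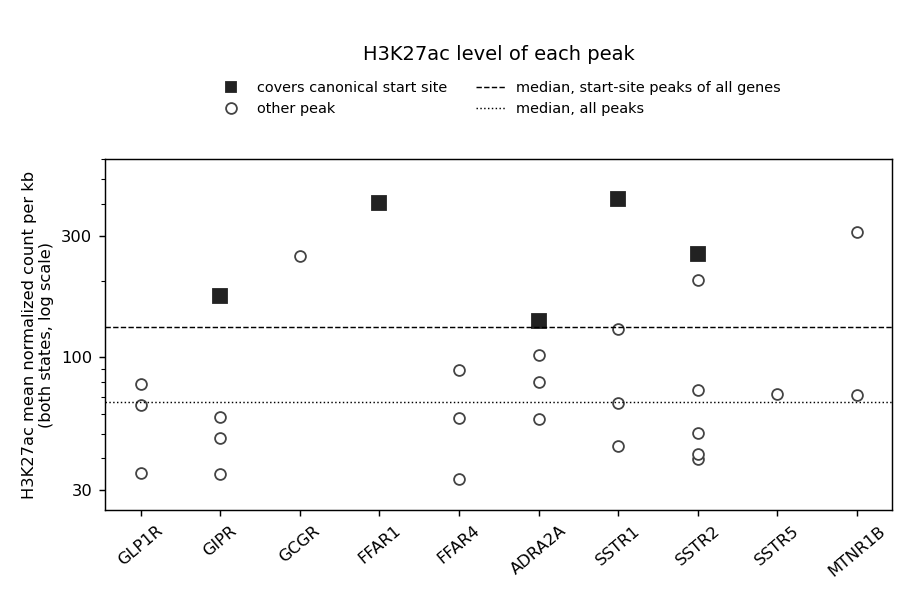
H3K27ac level of each of the 29 peaks of the receptor genes. The vertical axis (log scale) is the mean normalized count per kb over both states, the horizontal axis the gene; filled squares cover the canonical start site and open circles are the other peaks. Lines give the medians of 131.5 for start-site peaks of all genes and 66.6 for all peaks, and the 5 squares lie above both.

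Between the states, H3K27ac changed at 10 of the 29 peaks, in both directions. Gained here means higher in senescent cells by a fold above 1.5 with an adjusted p below 0.05, and lost means lower by as much. Gained peaks numbered 5, beside 9.47% of all peaks in the table, and lost peaks 5, beside 13.1%. The median log2 fold change of the 29 was 0.06, against 0.01 over the table. Of the 9 peaks at start sites 1 was gained and 1 lost (5.92% and 9.98% of all peaks at start sites of protein-coding genes), and of the 20 others 4 were gained and 4 lost (11.2% and 14.7% elsewhere). The count of gained peaks fell to 3 when peaks were assigned within 50 kb, to 2 when the nearest gene could be of any type, and to 0 in a Wald test against a fold of 1.5, which 1 lost peak passed. With so few peaks these counts are a description and single out no property of receptor genes.

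The changes were spread unevenly over the genes. GLP1R and ADRA2A had gained peaks only, FFAR4, SSTR2 and SSTR5 lost peaks only, SSTR1 had both, and GIPR, GCGR, FFAR1 and MTNR1B had no called peak. When the counts of all peaks of a gene were summed, the implied total went from 215 in non-senescent to 424 in senescent cells at GLP1R (a ratio of 1.97) and from 902 to 1528 at ADRA2A (1.69). It went the other way from 457 to 183 at SSTR5 (0.401) and from 368 to 245 at FFAR4 (0.665). The other 6 genes had ratios between 0.95 (MTNR1B) and 1.22 (GIPR), and these sums carry no error of their own.

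**Figure D2:**
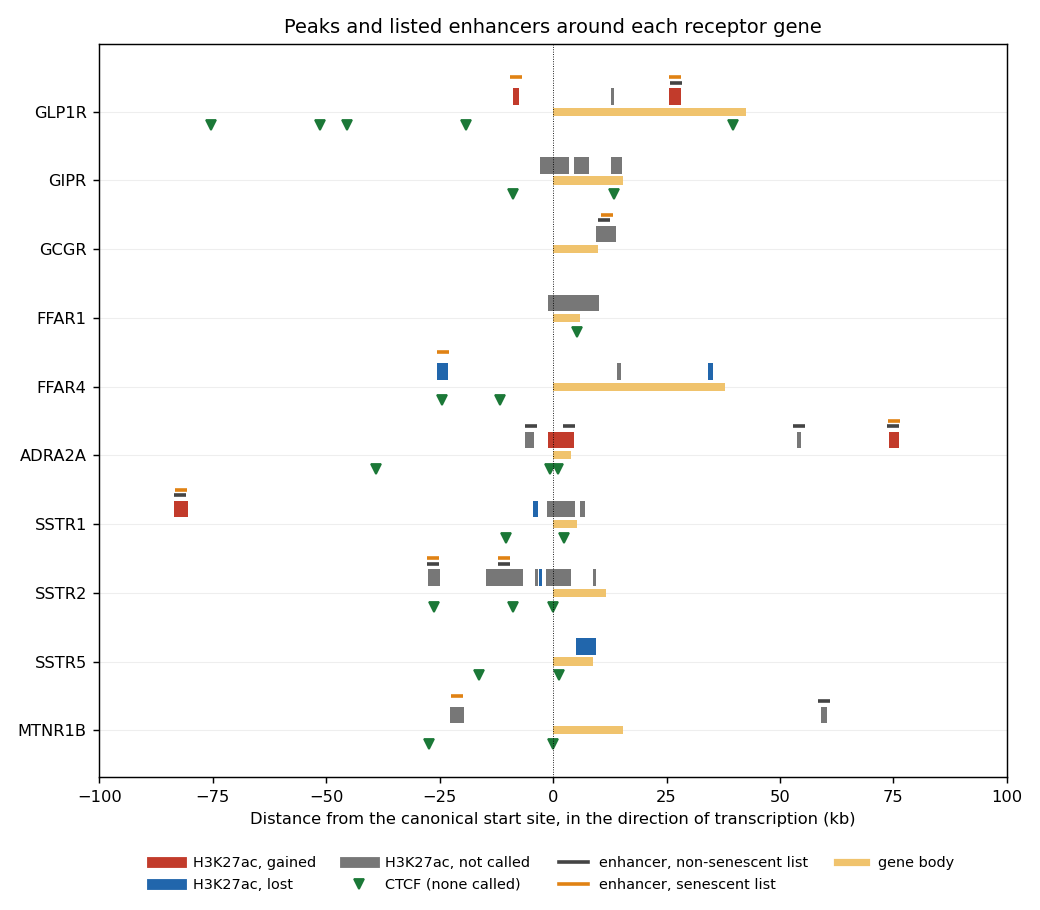
Peaks and listed enhancers around the 10 receptor genes, drawn by distance in kb from each canonical start site in the direction of transcription. Bars are H3K27ac peaks coloured by call (narrow ones widened to stay visible), triangles CTCF peaks, short lines above the bars enhancers listed in each state and yellow bars the gene bodies; the gained peaks of GLP1R lie on either side of its start site, which itself has no bar.

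GLP1R, the receptor of the incretin GLP-1, gained H3K27ac on either side of an unmarked start site. The peak 7.58 kb upstream (chr6:39039870-39041201), in an exon of the annotated gene ENSG00000220556, had an implied level of 52.4 counts in non-senescent and 120 in senescent cells. Its log2 fold change of 1.19 (SE 0.23, adjusted p = 2.72e-06) was the largest rise among the 29 peaks, and the region was listed as an enhancer in senescent cells alone. The peak 25.5 kb downstream (chr6:39074300-39076982), in an intron of GLP1R, went from 148 to 275 counts (0.90, SE 0.14, adjusted p = 6.33e-09) and was listed as an enhancer in both states. Between them lay a weak intronic peak (chr6:39061507-39062143) with a mean of 22.3 counts, whose log2 fold change of 0.96 had an SE of 0.42 and an adjusted p of 0.0526, so it was not called. All 3 estimates were above 0.

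GIPR, the receptor of the incretin GIP, was marked at its start in both states. The peak over its canonical start site (chr19:45665422-45670848) had implied levels of 823 and 1063 counts. Its log2 fold change of 0.37 (SE 0.09) had an adjusted p of 0.000114 and a fold of 1.29, under the fold limit, so it was not called. The other 3 peaks lay in the gene body. Those at chr19:45671026-45671525, with a mean of 17.4 counts (log2 fold change 0.42, SE 0.49), and at chr19:45672901-45676095, with a mean of 153 (0.17, SE 0.17), lay at starts of other transcripts, and the third, at the 3′ end, was at -0.12 (SE 0.17). The middle one of these also covered the microRNA genes MIR642A and MIR642B. No listed enhancer was assigned to GIPR. Its CTCF peak 8.81 kb upstream, with a mean of 9.99 counts, overlapped regions listed in both states that lie nearer to the start site of another gene.

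GCGR, the glucagon receptor, had a single peak (chr17:81813685-81818075), which overlapped the 3′ end of the gene and lay within 2 kb of the start of a short transcript. The gene ends at 81814008, so most of the peak lay downstream of it. The mean of the peak, 1096 counts, was above 91.4% of all peaks, and its implied levels were 1100 and 1091 counts. The log2 fold change of -0.01 had a 95% interval of -0.17 to 0.15, which leaves out a fold of 1.5 in either direction. It overlapped enhancers listed in both states.

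The fatty acid receptors differed in where they were marked. FFAR1, the receptor of long-chain fatty acids in beta cells, lay inside a peak of 11178 bases (chr19:35346752-35357929). The peak also overlapped exons of CD22 and lay within 2 kb of a start site of FFAR3, so its signal cannot be given to FFAR1 alone. The mean of 4519 counts was above 99.5% of all peaks, with implied levels of 4295 and 4743 counts and a log2 fold change of 0.14 (SE 0.06, adjusted p = 0.057), which was not called. The 95% interval of 0.02 to 0.27 stayed under a fold of 1.5.

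FFAR4, a second long-chain fatty acid receptor, had no peak at its start sites and lost H3K27ac farther out. The peak 23.1 kb upstream (chr10:93541080-93543588) went from 272 to 173 counts (log2 fold change -0.66, SE 0.15, adjusted p = 7.56e-05). It overlapped a region listed as an enhancer in senescent cells alone, although its count was lower in those cells. Listing also rests on H3K4me1, for which no values are given. The other lost peak (chr10:93600737-93601901, -0.63, SE 0.25, adjusted p = 0.0289) lay in the last part of the gene body. It also overlapped an exon of RBP4, which encodes a retinol carrier, and lay within 2 kb of an RBP4 start site. Its call was lost when the trend with GC content was removed (-0.44). A weak intronic peak with a mean of 16.7 counts was not called (0.46, SE 0.52).

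ADRA2A, the receptor through which adrenaline inhibits insulin secretion, was the only one of the 5 genes with a marked canonical start site to gain H3K27ac there. The peak (chr10:111075906-111081645), which covered the whole gene, had implied levels of 568 counts in non-senescent and 1029 in senescent cells, a log2 fold change of 0.86 (SE 0.09, adjusted p = 6.95e-20). A second peak 73.9 kb downstream (chr10:111150971-111153153), between genes, went from 150 to 295 counts (0.98, SE 0.14, adjusted p = 2.92e-11) and was listed as an enhancer in both states. The peaks 4.25 kb upstream (0.26, SE 0.17, adjusted p = 0.22) and 53.8 kb downstream (-0.25, SE 0.29, adjusted p = 0.519) were not called. Of its 4 regions listed in non-senescent cells, 1 was listed in senescent cells too. The 3 that were not included 1 inside the gained start-site peak, so absence from the senescent list went with a higher count there.

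SSTR1, SSTR2 and SSTR5 encode receptors of somatostatin, the hormone of delta cells that inhibits neighbouring islet cells. Their start-site peaks are given first. At SSTR1 (chr14:38206449-38212801) the implied levels were 2664 and 2672 counts, with a log2 fold change of 0.00 and a 95% interval of -0.14 to 0.15. At SSTR2 (chr17:73163377-73168945), where the peak also overlapped an exon of the gene ENSG00000264860, they were 1393 and 1450 (0.06, interval -0.08 to 0.19). Both intervals leave out a fold of 1.5.

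At SSTR5 the only H3K27ac peak (chr16:1077727-1082184) fell from an implied 457 counts to 183. The log2 fold change of -1.32 (SE 0.14, adjusted p = 1.07e-19) was the only lost call to pass a test against a fold of 1.5. The peak lay 4.98 kb downstream of the canonical start site, over the start of the second SSTR5 transcript and the whole RefSeq window printed above. It also overlapped exons of SSTR5-AS1, the antisense gene, and chromatin signal has no strand, so the peak cannot be given to either gene alone. No enhancer was listed there in either state, and the lists leave out promoters by definition.

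Away from the start sites, SSTR1 and SSTR2 changed at peaks of lower level. The SSTR1 peak 80.4 kb upstream (chr14:38124247-38127515), in an intron of ENSG00000259048 and listed as an enhancer in both states, went from 325 to 515 counts (0.66, SE 0.10, adjusted p = 3.24e-09). Nearer to the gene, the peak 3.33 kb upstream (chr14:38203514-38204575) went from 85.1 to 55.4 (-0.62, SE 0.25, adjusted p = 0.0361; a fold of 1.54, just past the limit). A weak SSTR1 peak 5.9 kb downstream was not called (0.30, SE 0.34). At SSTR2 the peak 2.54 kb upstream (chr17:73161970-73162469), with a mean of only 20.9 counts, was lost (-1.33, SE 0.46, adjusted p = 0.0125), and its interval of -2.23 to -0.43 was the widest of the 10 called peaks. The broad SSTR2 peak 6.7 kb upstream (chr17:73150214-73158311), with a mean of 1626 counts and enhancers listed in both states, was at -0.03 (SE 0.08). The remaining 3 SSTR2 peaks lay between -0.61 and -0.20 and were not called.

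MTNR1B, the melatonin receptor of beta cells, had its H3K27ac away from the gene. The peak 19.7 kb upstream (chr11:92947031-92949983) had implied levels of 955 and 870 counts (log2 fold change -0.13, SE 0.08, adjusted p = 0.164), and although it was not called, it was listed as an enhancer in senescent cells alone. The peak 59 kb downstream (chr11:93028646-93029905) went from an implied 72.4 to 107 counts. Its log2 fold change of 0.56 (SE 0.21, adjusted p = 0.0234) came to a fold of 1.47, just under the limit, and it was listed in non-senescent cells alone.

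**Figure D3:**
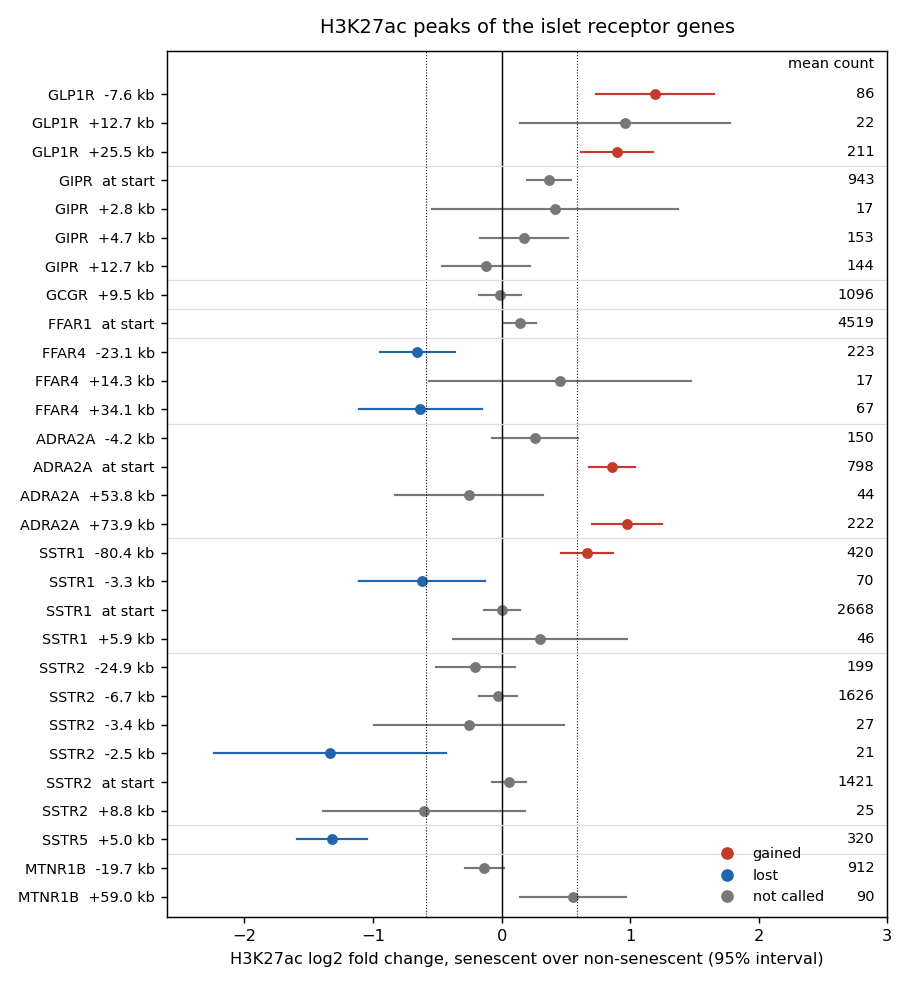
Log2 fold change of H3K27ac, senescent over non-senescent, for each of the 29 peaks, labelled by gene and distance from the canonical start site. Points are the deposited estimates and lines their 95% intervals (3 libraries per state), dotted lines mark a fold of 1.5 and figures at the right are mean counts; the 10 called peaks, in colour, have intervals clear of 0, and the start-site peaks of FFAR1, SSTR1 and SSTR2 have the narrowest intervals of all, that of FFAR1 just above 0.

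Listing as an enhancer in 1 state alone did not always go with a higher H3K27ac count in that state at these genes. Listing also rests on H3K4me1, for which no values are given. A listed enhancer was present at 7 of the 10 genes, and 13 of the 29 peaks overlapped one by at least 1 base. Of the 6 peaks listed in both states 3 were gained and 0 lost. Of the 3 listed in senescent cells alone 1 was gained (GLP1R) and 1 lost (FFAR4), and of the 4 listed in non-senescent cells alone 1 was gained (ADRA2A) and 0 lost. The 16 peaks on neither list, which include the SSTR1, SSTR2 and FFAR1 start sites, held the other 4 lost peaks and 0 gained ones. Because the study placed enhancers outside promoters, the absence of a start-site peak from the lists is no finding about that peak. The lists hold positions without values, so listing was not tested against the fold change. No share over all peaks of the same listing stands beside these counts, so they are a description and single out no property of receptor genes.

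CTCF gave no called change at any receptor. Called means a fold above 1.5 with an adjusted p below 0.2, a looser limit than for H3K27ac. All peaks of the deposited table were used, and whether a filter for the CTCF motif had been applied to them is not known, which bears on every share of CTCF peaks given here. Of the 22 peaks, at 9 genes (GCGR had none), 17 had an adjusted p and 5, with means up to 18.1 counts, had none. Gained peaks numbered 0 and lost peaks 0 by the deposited DESeq2 values, beside 2.99% and 4.28% of all CTCF peaks tested. An unadjusted p under 0.05 was present at 3 of the 22, beside 8213 of all 51457 CTCF peaks. The median log2 fold change was -0.03, against -0.01 over the table. The median SE of 0.25 was wide enough to hide a moderate change at the weaker peaks.

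The strongest CTCF peaks had narrow intervals. That 14.3 kb upstream of SSTR5 (chr16:1054327-1058491) had a mean of 558 counts and a log2 fold change of -0.10 (SE 0.13). The peak over the ADRA2A start site (chr10:111075067-111077548) had a mean of 497 counts and stood at 0.08, with an interval of -0.15 to 0.31 that leaves out a fold of 1.5, while the H3K27ac peak it overlaps was gained. The weaker ADRA2A peak at 0.94 kb had a mean of 18.1 counts (0.45, SE 0.49, no adjusted p).

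The 3 peaks with an unadjusted p under 0.05 lay at GIPR, FFAR1 and MTNR1B. The peak at the 3′ end of GIPR (chr19:45680943-45682550, mean 392 counts) was at -0.33 (SE 0.14, adjusted p = 0.175), and that at the 3′ end of FFAR1 (chr19:35352216-35354230, mean 263) at -0.31 (SE 0.14, adjusted p = 0.189). Both passed the p limit and stayed under the fold limit. The MTNR1B peak 26.7 kb upstream (chr11:92941732-92942971, mean 120) was at 0.39 (SE 0.19, adjusted p = 0.248).

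At the other start sites, CTCF was weaker. SSTR1 had a CTCF peak 0.93 kb downstream (chr14:38208834-38211958, mean 276 counts) at 0.02 (SE 0.14). The MTNR1B start-site peak (chr11:92969087-92969937, mean 70.5) was at -0.33 (SE 0.27, adjusted p = 0.521), and that of SSTR2 (chr17:73164564-73165190, mean 12.3) at 0.05 (SE 0.61, no adjusted p). The SSTR5 peak 0.998 kb downstream (chr16:1073745-1074484, mean 35.7) had the lowest estimate of the 22, -0.64, with an SE of 0.40 and an adjusted p of 0.389. The other CTCF peaks away from start sites included all 5 of GLP1R, between -0.26 and 0.05, of which 4 lay in DNAH8 upstream of it.

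CTCF sequence is shown for the peak of highest mean, that upstream of SSTR5, and beside it for the ADRA2A start-site peak, added after its values had been seen. Capitals mark a match with the fewest mismatches to the 13-base CTCF core consensus, with 10 bases on either side. Both are on the plus strand, at chr16:1057636-1057668 and chr10:111076277-111076309.
SSTR5: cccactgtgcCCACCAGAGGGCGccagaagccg
ADRA2A: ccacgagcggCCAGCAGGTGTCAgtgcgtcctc

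The SSTR5 match had 0 mismatches and the ADRA2A match 1. The ADRA2A peak held 3 positions with 1 mismatch and 0 exact ones, so the stretch shown is 1 of 3 equal matches. Among the 22 peaks, 7 (31.8%) held the core with at most 1 mismatch, against 41.5% of all CTCF peaks in the table, and 1 (4.55%) an exact core, against 11%. These are matches of letters on either strand, and the remaining peaks merely lack them within this tolerance.

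**Figure D4:**
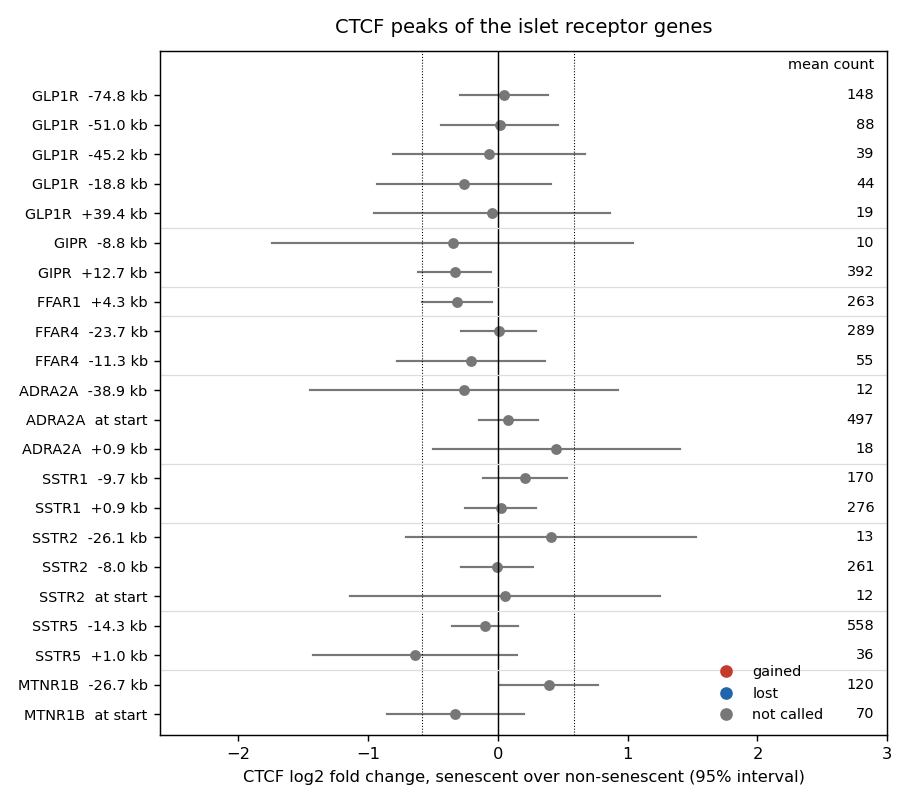
Log2 fold change of CTCF, senescent over non-senescent, for each of the 22 peaks at 9 receptor genes, labelled by gene and distance from the canonical start site. Points are the deposited estimates, lines their 95% intervals (3 libraries per state), dotted lines a fold of 1.5 and figures at the right mean counts; every point is grey (not called), and the widest intervals belong to the lowest means.

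CTCF and H3K27ac met at 9 places, where a CTCF peak overlapped an H3K27ac peak of the same gene. H3K27ac was gained at 2 of these (both in the ADRA2A start-site peak) and lost at 1, upstream of FFAR4, where CTCF was at 0.00 (SE 0.15) with a mean of 289 counts. At the broad SSTR2 upstream peak neither mark was called, with CTCF at 0.00 and H3K27ac at -0.03.

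The genes through which these receptors act were read from their start-site peaks, from lists chosen by function. For each gene and mark the value is that of the peak of highest mean within 2 kb of any start site. The same rule served the cell type markers above. The 2 marks of a gene can thus be read at different start sites, as for ADCY3 and CASR. Over all protein-coding genes with an H3K27ac start-site peak, where 3.34% were gained and 9.12% lost, the median log2 fold change was 0.04. Of 35 other islet receptors 18 had a peak, and 0 were gained and 6 lost (median -0.19). The lost ones included FFAR2, a receptor of short-chain fatty acids (-0.87, SE 0.09, adjusted p = 4.12e-19), the VIP and PACAP receptor VIPR1 (-1.28) and LPAR1, a receptor of lysophosphatidic acid (-0.66). Of 21 G protein subunit genes with a peak 0 were gained and 0 lost, with a median of 0.12 and values from -1.01 to 0.48.

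The cyclic AMP arm comprised 27 genes with a peak, of which 1 was gained and 3 lost (median -0.05). PDE10A, a phosphodiesterase that breaks down cyclic nucleotides, was gained (0.95, SE 0.12, adjusted p = 3.68e-13). The adenylyl cyclases ADCY8 (-0.88, SE 0.07, adjusted p = 8.9e-32), ADCY9 (-0.76, SE 0.11, adjusted p = 5.81e-11) and ADCY3 (-1.99, SE 0.64, adjusted p = 0.00631), which make cyclic AMP, were lost, ADCY3 at a mean of only 11.7 counts. In the phospholipase C arm 0 of 11 were gained and 1 was lost, the inositol trisphosphate receptor gene ITPR3 (-1.51, SE 0.16, adjusted p = 7.91e-20).

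Genes that end receptor signalling, the receptor kinases, arrestins and RGS proteins, numbered 16 with a peak, of which 0 were gained and 5 lost (median -0.07). RGS3 (-1.45, SE 0.12, adjusted p = 1.55e-29), RGS5 (-0.61), RGS17 (-0.59, a fold of 1.51, just past the limit) and the receptor kinase gene GRK3 (-0.70) were among them. Of 10 genes of receptor ligands 3 had a peak and SST was lost. GCG and GIP, whose products act on GLP1R, GCGR and GIPR, had none at their start sites.

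By CTCF, 0.751% of 9055 protein-coding genes with a tested start-site peak were gained and 5.04% lost. The median was -0.14 over all 10565 with a start-site peak, tested or not. Among the other receptors 0 were gained and 2 of 20 lost, CASR among them (-0.99, SE 0.39, adjusted p = 0.135), and among G protein subunits 2 of 12, GNG3 (-1.23) and GNA12 (-0.90). The cyclic AMP arm had 2 of 25 lost, ADCY3 (-0.74) and PRKACA (-0.63), the phospholipase C arm 0 of 12, and the desensitization genes 1 of 12, RGS10 (-0.87, SE 0.21, adjusted p = 0.00556). Of 6 ligand genes VIP was gained (1.06, SE 0.35, adjusted p = 0.058) and PYY lost (-0.87, SE 0.38, adjusted p = 0.185). Apart from RGS10, these CTCF calls passed the limit of 0.2 and would not have passed 0.05.

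**Figure D5:**
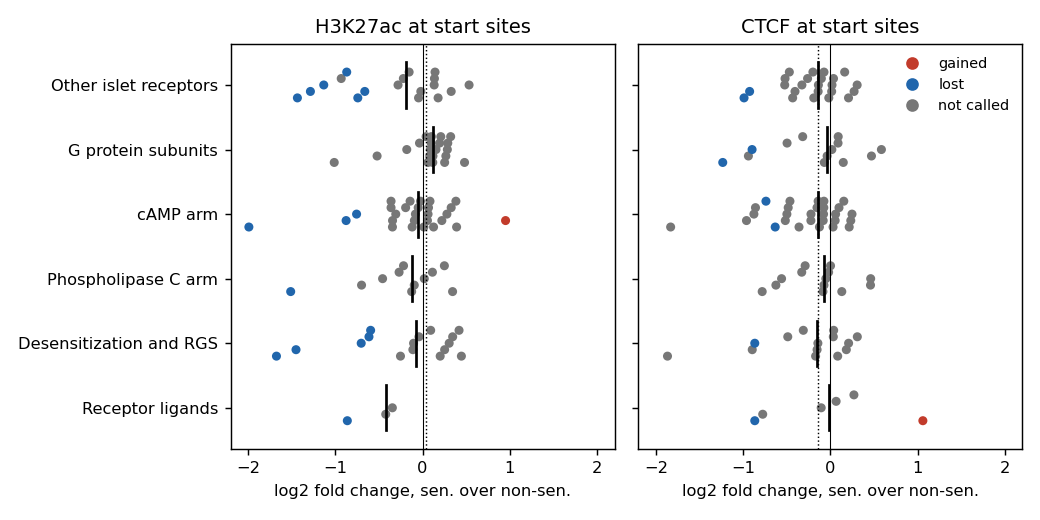
Log2 fold change, senescent over non-senescent, of the H3K27ac (left) and CTCF (right) start-site peak of each gene in 6 signalling lists. Each point is a gene coloured by call, short black lines are list medians and the dotted line the median over all protein-coding genes (0.04 for H3K27ac and -0.14 for CTCF); the called points lie mostly left of 0, with PDE10A and VIP on the right.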

How the data were processed

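Chromatin immunoprecipitation and sequencing libraries of EndoC-βH3 cells were assigned to antibody and state by their labels. The authors, as their methods say, used Trim Galore for trimming, Bowtie2 for alignment to hg38, HOMER (H3K27ac and H3K4me1) or MACS2 (CTCF and Rb) for peaks against input or the other state, and DESeq2 to test the 2 states on read counts per peak. Tool versions were not given in the sources used here. The deposited mean signal is the mean read count over libraries after division by size factors. The log2 fold change, its standard error and the Wald score were deposited by the authors, senescent over non-senescent, as were the p-value and its Benjamini-Hochberg adjusted form. The other deposited files are lists of region positions only. These comparison columns are the authors' own result; no model was refitted, since the tables hold no value per library, and a planned count test was not run. No column (0) of another series was used. Size factors centre the tables, so a change of the mark shared by all regions would not show.

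The thresholds followed the study: adjusted p under 0.05 and fold change above 1.5 for H3K27ac, adjusted p under 0.2 and fold change above 1.5 for CTCF. The study counted CTCF changes only at sites with the CTCF motif. Here every peak in the table was used, and it is not known whether the table was filtered for the motif. Table and list starts were read as counting from 0 and are given from 1. Peaks were joined to GENCODE 44 genes with pandas 2.3.3 and numpy 2.4.6 in Python 3.11.15. The 95% interval is the deposited log2 fold change plus and minus 1.96 standard errors. The implied level of each state was computed from the deposited mean and fold change, with 3 libraries per state. The Wald test against a fold of 1.5 was tested on simulated data. The receptors, gene lists, markers and rules were chosen with earlier results of these data known. The rule for names took all 10 receptors, every peak at their start sites and every called peak, and at most 4 called genes per list and direction, by smallest adjusted p; 1 of these is not reported here. Alternatives covered the fold and p limits, a minimum mean count, centring, GC content and the assignment of peaks to genes.

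Library depth is not given by the tables. The mean normalized counts summed to 19239499 over H3K27ac peaks and 6136424 over CTCF peaks. A peak of low mean has a wide interval, and 11972 of 51457 CTCF peaks had no adjusted p and stayed uncalled.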

Additional observations from a re-analysis of the deposited data

How the results depend on the processing

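No paired analysis was possible because the tables hold no values per library. For the same reason no library could be left out in turn, and these 2 alternatives were not run. Of the 5 gained H3K27ac peaks, 1 stayed above a fold change of 2, and 0 passed a Wald test against a fold change of 1.5 adjusted over all peaks. The count was 3 with peaks assigned within 50 kb, 2 with start sites and gene bodies only, and 2 when the nearest gene could be of any type, since these rules assign fewer peaks. Of the 5 lost peaks, 2 stayed above a fold change of 2, 1 passed the Wald test, 2 lay at start sites or in gene bodies, and 2 had an adjusted p under 0.01. Without a fold limit 2 CTCF peaks were lost, at GIPR and FFAR1, where 0 were called with it. The other counts stayed within 1.5 times. Of 23 named peaks no called one changed sign, and the uncalled SSTR1 start-site peak, at 0.00, went to -0.03 when re-centred and to -0.025 without the GC trend. Re-centring on start-site peaks left 23 on the same side of the threshold, removing the GC trend 22, and the Wald test 14. Per-library depth is unknown, and the standard errors alone carry the precision.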
